A study of Mus musculus with 3 samples.

Results

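Neutrophils that carried transcripts of the chemokines Cxcl3 or Ccl4 were examined in Drop-seq libraries of mouse liver. A barcode was taken as a cell when at least 200 genes were detected, and as a gated neutrophil when at least 2 of 6 neutrophil genes (Retnlg, Cxcr2, Csf3r, Stfa2l1, Mrgpra2b and Il1f9) had a unique molecular identifier (UMI, a tag that counts 1 captured transcript). Members were the gated neutrophils with 2 or more UMIs of Cxcl3 and Ccl4 together and with fewer than 2 of 7 interferon-induced genes (Ifit1, Ifit2, Ifit3, Isg15, Rsad2, Herc6 and Irf7) detected. They were therefore chosen by their measured levels of these 15 genes, which are given as a description only. The rule found 687 cells among 2439 gated neutrophils and 25263 cells, namely 6 in the control library, 2 at 1 day and 679 at 7 days after injury. The comparison cells were the gated neutrophils without a UMI of either chemokine, 286 in control, 40 at 1 day and 749 at 7 days.

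All 3 libraries came from C57BL/6 mice, and for each the tissue of 3 livers was pooled after a 4 mm punch had been cut from every liver. Livers of 2 libraries were injured by irreversible electroporation (IRE), which kills hepatocytes with electric pulses, here 8 pulses of 50 ms with 1 s between them, and were collected 1 day or 7 days post-injury (p.i.). The labels give 75 V and the methods 30 V. The control livers were collected 1 day after sham surgery according to the labels, whereas the methods describe an equivalent, uninjured area. Since each condition is 1 library, nothing could be tested over animals, library and condition cannot be told apart, and every interval given is a 95% interval that covers counting error only.

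Neutrophils are short-lived granulocytes that leave the blood through the attraction of chemokines, small secreted proteins bound by receptors on leukocytes. Cxcl3, like Cxcl1 and Cxcl2, is a ligand of Cxcr2, the receptor by which neutrophils themselves are attracted. Ccl4, like its neighbour Ccl3, attracts monocytes, macrophages and lymphocytes. Both kinds of chemokine can be made by activated neutrophils and by macrophages. Csf3r, the receptor of granulocyte colony-stimulating factor, and Cxcr2 mark mature neutrophils.

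Cxcl3, a chemokine of the rule, was matched to the promoter windows of RefSeq (build GRCm38). So were Cxcl2 and Ccl3, which are not in the rule, because their transcripts were higher in the members. No window of Ccl4, the other chemokine of the rule, was in the set used. The 250 bases before each start are printed on the strand of the gene, 5′ to 3′. Capitals mark matches to the consensus of NF-kB, a transcription factor of inflammatory genes, searched on both strands.
Cxcl3, chr5:90785851-90786100, plus strand: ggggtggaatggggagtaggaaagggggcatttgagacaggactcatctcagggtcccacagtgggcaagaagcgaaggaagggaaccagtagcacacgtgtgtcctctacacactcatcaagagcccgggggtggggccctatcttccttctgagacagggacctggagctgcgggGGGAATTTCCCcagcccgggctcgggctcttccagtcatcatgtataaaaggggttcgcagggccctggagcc
Cxcl2, chr5:90903649-90903898, plus strand: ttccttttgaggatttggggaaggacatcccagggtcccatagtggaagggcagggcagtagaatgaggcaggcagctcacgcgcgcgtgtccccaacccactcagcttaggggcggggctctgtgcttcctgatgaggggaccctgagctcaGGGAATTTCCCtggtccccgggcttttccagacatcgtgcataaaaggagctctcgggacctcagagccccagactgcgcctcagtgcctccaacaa
Ccl3, chr11:83649379-83649628, minus strand: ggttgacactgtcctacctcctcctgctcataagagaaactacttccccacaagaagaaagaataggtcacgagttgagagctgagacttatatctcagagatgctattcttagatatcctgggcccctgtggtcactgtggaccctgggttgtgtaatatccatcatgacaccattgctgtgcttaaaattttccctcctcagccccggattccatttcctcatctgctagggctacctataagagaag
The Cxcl3 and Cxcl2 windows each held 2 overlapping matches in the same 11 bases, which lie 73 to 63 bases before the start of Cxcl3 and 97 to 87 bases before that of Cxcl2. Of 32851 windows of this length, 7.25% held a match, and the Ccl3 window held none. The AP-1 motif TGANTCA, found in 6.75% of the windows, had no match in the 3 genes. The C/EBP motif TTNCNNAA, found in 36.8%, matched once in the Cxcl2 and once in the Ccl3 window. These matches describe letters and not binding.

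The control library held 10032574 UMIs, that of 1 day p.i. 8563287 and that of 7 days p.i. 4580021. Members at 7 days p.i. had between 257 and 3047 UMIs, with a median of 509, against 456 in the comparison cells, and 4.97 reads per UMI in both groups. Of the members at 7 days p.i., 48 had a barcode that also occurs in another library. Transcripts of the defining genes of other cells were found in many gated barcodes. At least 2 markers of 1 other cell type were detected in 14.7% of members and 20.4% of comparison cells at 7 days p.i., in 50.0% of comparison cells in control and in 80.0% at 1 day p.i. For gated cells, here and below, this count took in macrophages, T or NK cells, basophils or mast cells, B cells, dendritic cells and endothelial cells. Markers of monocytes, wound macrophages, hepatocytes and erythroid cells were not counted in it.

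Members made up 32.6% (30.6 to 34.7) of the gated neutrophils at 7 days p.i., 679 of 2083 cells. In the control library they were 1.94% (0.716 to 4.18), 6 of 309 cells, and at 1 day p.i. 4.26% (0.520 to 14.5), 2 of 47 cells. The intervals of both earlier libraries lie below that of 7 days p.i. and overlap each other. After each gated cell had been thinned to 300 UMIs, with 4, 0 and 88 shallower cells left out of the libraries in this order, the shares were 0.328% (0.00830 to 1.81), 2.13% (0.0539 to 11.3) and 23.0% (21.1 to 24.9).

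Both chemokines were higher in gated neutrophils at 7 days p.i. Of these cells, 51.6% (49.4 to 53.8) had a UMI of Cxcl3, against 0.971% (0.201 to 2.81) in control and 8.51% (2.37 to 20.4) at 1 day p.i. For Ccl4 the share was 33.1% (31.1 to 35.2), against 7.12% (4.52 to 10.6) in control and 10.6% (3.55 to 23.1) at 1 day p.i. As summed UMIs scaled to counts per 1e+06 UMIs (CPM), Cxcl3 stood at 70.2 in control and 199 in the 1-day library, and reached 2887 after 7 days, a level 41.1-fold (26.3 to 68.4) above control. Ccl4 stood at 118, 249 and 1383 CPM, 11.7-fold (8.25 to 17.2) above control at 7 days p.i. Of the 19 Cxcl3 UMIs in control gated cells, 17 lay in 1 cell. Cells outside the gate were also higher in Cxcl3 at 7 days p.i., at 1994 CPM (1929 to 2060) against 3.23 (2.09 to 4.77) in control, and in Ccl4, at 638 (601 to 675) against 53.6 (48.6 to 59.0). The gate gene Retnlg was higher in these cells as well, at 1406 CPM (1352 to 1462) against 115 (108 to 123) in control. How much the mix of cells outside the gate contributed was not tested.

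**Figure D1:**
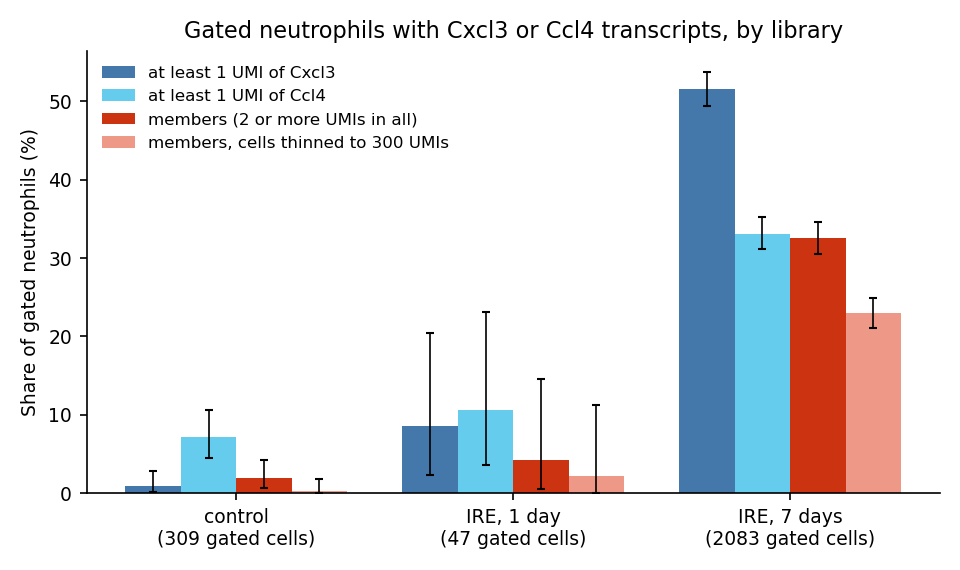
Share of gated neutrophils (vertical axis, %) in each library with a UMI of Cxcl3, with a UMI of Ccl4, taken as members, and taken as members after thinning to 300 UMIs; bars start at 0 and lines are exact binomial 95% intervals. Members reached 32.6% at 7 days p.i. and 1.94% in control, and the 1-day bars rest on 47 cells.

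The 8 members of the other libraries had between 430 and 3239 UMIs. In control, 1 member held 17 UMIs of Cxcl3 and 6 of Ccl4, and the other 5 had exactly 2 UMIs of both together. S100a8, which encodes a subunit of calprotectin and is abundant in neutrophils, stood at 4942 CPM (3514 to 6755) in these 6 cells against 30817 CPM in control comparison cells. In the 2 members of 1 day p.i. S100a8 stood at 19808 CPM (13459 to 28116), against 12622 in all gated neutrophils of that library. At least 2 markers of 1 other cell type were found in 4 of the 6 control members and in both members of 1 day p.i., and mitochondrial transcripts took 35.1% of the UMIs of the control members against 20.9% in the comparison cells. The control members thus carried few transcripts of this neutrophil gene, and the further description is of the 679 cells of 7 days p.i.

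At 7 days p.i., 340 members (50.1%) had UMIs of both chemokines, 279 (41.1%) of Cxcl3 alone and 60 (8.84%) of Ccl4 alone. They held 2695 UMIs of Cxcl3, with a median of 3 per cell and at most 32, and 1132 of Ccl4, with a median of 1 and at most 20. Just inside the rule stood 195 members with exactly 2 UMIs, which held 273 of Cxcl3 and 117 of Ccl4. Just outside it stood 348 cells with 1 UMI and fewer than 2 interferon-induced genes, 231 with Cxcl3 and 117 with Ccl4. At the other end, 108 members had 10 or more UMIs. Of the library's UMIs of each gene over all barcodes, the members held 21.5% for Cxcl3 and 19.3% for Ccl4.

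At 7 days p.i., Retnlg, which encodes a resistin-like protein of neutrophils, was detected in 89.8% of members and 87.7% of comparison cells, and Cxcr2 in 77.3% and 76.0%. Csf3r was detected in 31.7% and 34.8%. In level, the ratio of members to comparison cells was 1.33 (1.27 to 1.39) for Retnlg, 0.969 (0.889 to 1.06) for Cxcr2 and 0.827 (0.70 to 0.976) for Csf3r. S100a8 was detected in 99.3% of members and 96.8% of comparison cells. Ly6g, a surface marker of mature mouse neutrophils, was detected in 1.47% of members and 2.27% of comparison cells. Stfa2l1 and Il1f9, also gate genes, were detected in more of the members, Stfa2l1 in 27.8% against 20.4% and Il1f9 in 30.9% against 18.6%. Exactly 2 gate genes were found in 53.8% of members and in 64.6% of comparison cells, and 314 members had more.

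Cells other than gated neutrophils also carried the chemokines at 7 days p.i. The Cxcl3 of cells that should lack it was taken as background. Whether it came from free RNA or from doublets, which were kept, was not tested. Among 123 cells outside the gate with 2 or more T or NK cell markers and no other class, 16.3% (10.2 to 24.0) had a UMI of Cxcl3 at a median of 370 UMIs per cell, against 51.6% of gated neutrophils at a median of 492. At least 2 UMIs of both chemokines together were found in 4.88% (1.81 to 10.3) of those cells and in 41.4% (39.3 to 43.6) of gated neutrophils, whatever their interferon-induced genes. In the control library, cells with T or NK markers held 68 UMIs of Ccl4 and 1 of Cxcl3, so that their Ccl4 need not be background. Among 721 cells with 2 or more of 7 markers of wound macrophages, among them Ccl2, Ccl7, Spp1 and Trem2, 48.0% (44.3 to 51.7) had a UMI of Cxcl3 and 20.9% (18.0 to 24.1) one of Ccl4. Their Cxcl3 level was 4353 CPM and their Ccl4 level 886 CPM, so that there were 4.91 (4.34 to 5.58) UMIs of Cxcl3 to 1 of Ccl4, against 2.09 (1.97 to 2.21) in gated neutrophils and 1.33 (0.694 to 2.61) in the cells with T or NK markers. The proportion of the 2 chemokines thus differed between gated neutrophils and wound macrophage-marked cells by more than counting error. In all, 815 cells outside the gate, those with markers of other cell types included, had 2 or more UMIs of both chemokines together. Of these, 492 had 1 gate gene and 323 none, and 98.3% (97.1 to 99.1) had a UMI of S100a8 or S100a9, as did 94.7% (93.8 to 95.5) of the 2726 other cells outside the gate.

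**Figure D2:**
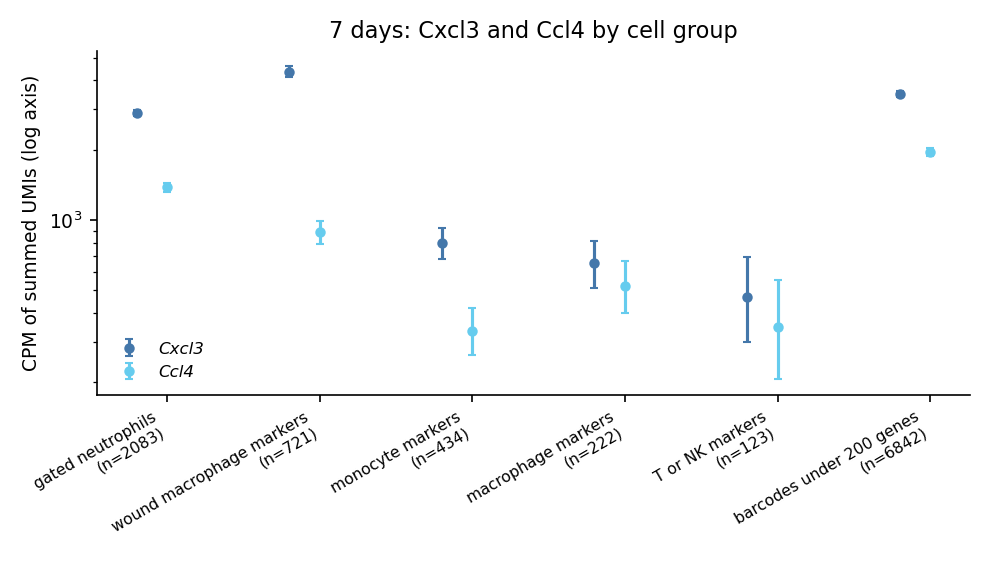
Level of Cxcl3 and Ccl4 (vertical log axis, CPM of summed UMIs with exact Poisson 95% intervals) at 7 days p.i. in gated neutrophils, in cells outside the gate grouped by 2 or more markers of 1 class, and in barcodes under 200 genes; n is the number of barcodes. Cxcl3 was 2887 CPM in gated neutrophils and 4353 CPM in wound macrophage-marked cells, where Ccl4 was 886 CPM against 1383 CPM in gated neutrophils.

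Members and comparison cells were then compared at 7 days p.i. over 2394 genes with at least 50 UMIs in both together, with the 15 genes of the rule left out. The members held 416815 UMIs and the comparison cells 414784. The members were at least 2-fold higher in 47 genes (1.96% of those compared) and at least 2-fold lower in 128 (5.35%). The ratio was above 1 for 39.4% of genes and below 1 for 60.6%, and the median log2 ratio was -0.12. The genes highest relative to comparison cells were 1700017B05Rik, Ccl3, 2010005H15Rik, Inhba, Ppbp, Pdpn, Plaur, Phlda1, Rabgef1 and Slc7a11, and the lowest were Gbp2, Ifi205, Ly6a, Ifi47, Cxcl10, Gm4955, H2-Aa, Rin2, Tcp1 and Ehd4. The rule bars 2 or more interferon-induced genes in members, but 166 of the 749 comparison cells had them. Without those 166 cells, 3.29% of 2127 genes were at least 2-fold lower and 2.3% at least 2-fold higher.

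**Figure D3:**
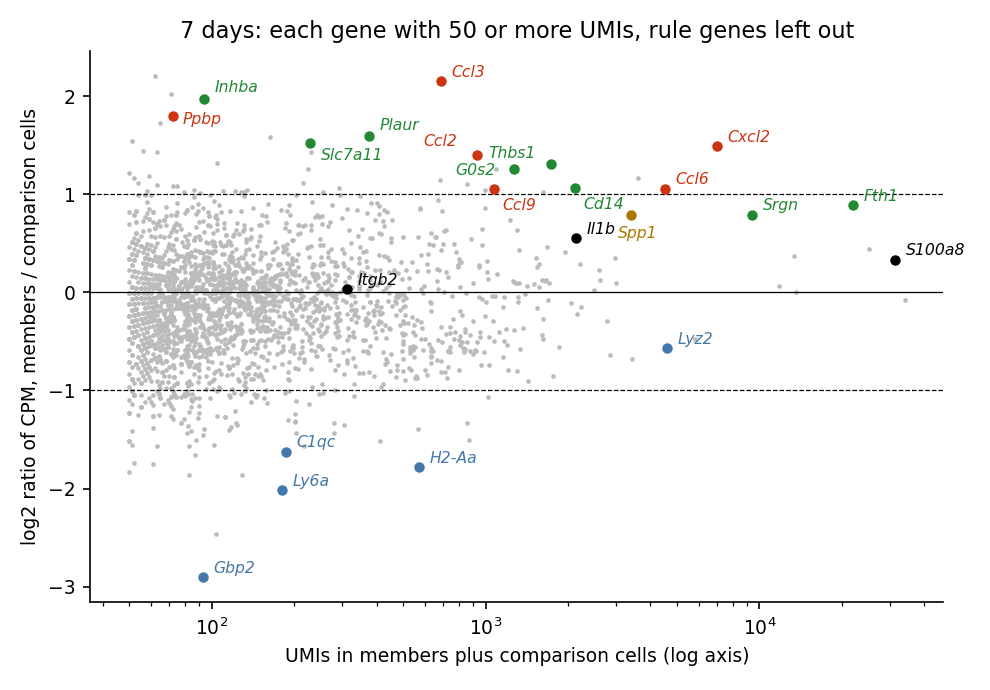
Log2 ratio of CPM in members to comparison cells at 7 days p.i. (vertical axis) against the UMIs of both groups together (horizontal log axis); each point is 1 of 2394 genes and dashed lines mark 2-fold. Ccl3 and Cxcl2 stand above 2-fold at high counts, and H2-Aa and Gbp2 below it.

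Of 8 other CC chemokines with 50 or more UMIs, 7 had a ratio above 1, against 39.4% of all genes, 4 were at least 2-fold higher, against 1.96%, and none at least 2-fold lower, with a median log2 ratio of 1.02. Ccl3, an attractant of monocytes and macrophages, had 562 UMIs in members and 126 in comparison cells, 1348 against 304 CPM, a ratio of 4.44 (3.65 to 5.43). It was detected in 40.5% of members and 14.0% of comparison cells. Ccl6, a chemokine of myeloid cells, had 3060 and 1463 UMIs, a ratio of 2.08 (1.96 to 2.22), and was detected in 85.7% of members and 67.8% of comparison cells. Ccl2, the chief attractant of monocytes, had 677 and 255 UMIs, a ratio of 2.64 (2.28 to 3.06). Ccl9 had a ratio of 2.07 (1.82 to 2.36), and Ccl12 one of 1.22 (0.786 to 1.92). Ccl5, made by T and NK cells, went the other way with 100 and 145 UMIs, a ratio of 0.686 (0.527 to 0.892).

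Of 6 other CXC chemokines, 4 had a ratio above 1, against 39.4% of all genes, with a median log2 ratio of 0.64. In this list 2 genes were at least 2-fold higher, against 1.96% of all genes, and 1 at least 2-fold lower, against 5.35%. Cxcl2, like Cxcl3 a ligand of Cxcr2, had 5151 UMIs in members and 1829 in comparison cells, 12358 against 4410 CPM, a ratio of 2.80 (2.66 to 2.96). Its transcripts were found in 94.8% of members and 72.6% of comparison cells. Pf4, a chemokine of platelets, had a ratio of 1.78 (1.52 to 2.08). Ppbp, also of platelets, had 56 UMIs in 22 members and 16 in 5 comparison cells, a ratio of 3.48 (1.97 to 6.50), but 10 of the 16 lay in 1 cell, without which it was 9.25 (4.00 to 26.3). With at least 3 gate genes required, the log2 ratio of Ppbp was 0.02, against 1.80. Cxcl5 had 35 UMIs in members and 2 in comparison cells, but 33 of the 35 lay in 1 cell. Cxcl10, an interferon-induced attractant of T cells, had 28 and 101 UMIs, a log2 ratio of -1.86, and of -0.14 when the comparison cells were held to fewer than 2 interferon-induced genes like the members. Cxcl16 was lower with 22 and 42 UMIs, a ratio of 0.521 (0.296 to 0.893). Cxcl13 had 40 and 29 UMIs, a ratio of 1.37, and its interval, 0.830 to 2.30, included 1. Of the 40 UMIs 27 lay in 1 member, without which the ratio was 0.448 (0.214 to 0.889). Of the 29, 16 lay in 1 comparison cell, without which it was 3.05 (1.60 to 6.22). Reads of related genes such as Cxcl2 and Cxcl3 or Ccl6 and Ccl9 may be assigned to either. The part of such sharing in these values was not tested.

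Of 15 neutrophil markers that the rule did not use 12 had a ratio above 1, against 39.4% of all genes, and 3 were at least 2-fold higher, against 1.96%. Their median log2 ratio was 0.55, and 2 of the 15 intervals included 1. G0s2, an inhibitor of triglyceride breakdown, had 896 and 372 UMIs, a ratio of 2.40 (2.12 to 2.71), and was detected in 52.1% of members and 30.3% of comparison cells. Clec4d, a lectin that senses fungal and mycobacterial glycolipids, had a ratio of 2.06 (1.80 to 2.36), and Slpi, a protease inhibitor, one of 2.03 (1.83 to 2.26). S100a8 and S100a9 had ratios of 1.26 (1.23 to 1.29) and 1.36 (1.33 to 1.39). Mmp9, a gelatinase of tertiary granules, had 217 UMIs in members and 272 in comparison cells, a ratio of 0.794 (0.661 to 0.952).

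Of 9 granule protein genes 8 had a ratio below 1, against 60.6% of all genes, 4 of the 9 intervals included 1 and none passed 2-fold, with a median log2 ratio of -0.41. Ngp, a protein of secondary granules, had 140 UMIs in members and 191 in comparison cells, but 33 of the 191 lay in 1 cell, without which the ratio was 0.880 (0.696 to 1.11). It was detected in 11.5% of members and 9.61% of comparison cells. Lyz2, which encodes lysozyme, had 1861 and 2749 UMIs, a ratio of 0.674 (0.635 to 0.715). Cybb, the catalytic subunit of the phagocyte oxidase, had 79 and 153 UMIs, a ratio of 0.514 (0.387 to 0.678). Lcn2, a siderophore-binding protein of granules, had a ratio of 0.985 (0.886 to 1.10), and Lyz2 and Cybb are also made by macrophages and monocytes. Camp, the cathelicidin of secondary granules, had 5 and 16 UMIs, with 7 of the 16 in 1 cell.

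None of the 8 of 21 listed cytokine genes with 50 or more UMIs passed 2-fold. These 8 had a ratio above 1, against 39.4% of all genes, but the intervals of 4 of them (Il1r2, Tnf, Csf1 and Tnfsf14) included 1. Their median log2 ratio was 0.52. Il1b had 1276 and 868 UMIs, a ratio of 1.46 (1.34 to 1.60), and its antagonist Il1rn 442 and 229, a ratio of 1.92 (1.63 to 2.26). Osm, a cytokine of the interleukin-6 family, had a ratio of 1.88 (1.53 to 2.33), and Vegfa, the growth factor of endothelium, one of 1.90 (1.25 to 2.95). Il1r2, the decoy receptor of interleukin-1, had 355 and 352 UMIs, a ratio of 1.00 (0.864 to 1.17), and Tnf had 46 and 35, a ratio of 1.31 (0.824 to 2.09). Inhba, a subunit of activin A that belongs to no list, had 75 and 19 UMIs in 39 members and 13 comparison cells, a ratio of 3.93 (2.35 to 6.88).

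Of 14 NF-kB subunits, inhibitors and targets, 11 had a ratio above 1, against 39.4% of all genes, 8 intervals included 1 and 1 gene passed 2-fold upward, against 1.96% of all genes, with a median log2 ratio of 0.45. This 1 gene was Plaur, the receptor of urokinase, with 282 UMIs in members and 93 in comparison cells, a ratio of 3.02 (2.38 to 3.86). The inhibitors Nfkbia and Nfkbiz had ratios of 1.35 (1.21 to 1.51) and 1.64 (1.27 to 2.12), and Ier3, an early stress gene, one of 1.55 (1.38 to 1.74). Icam1, an adhesion molecule, had 12 and 23 UMIs. Of 18 immediate early genes 15 had a ratio above 1, against the same 39.4%, 9 intervals included 1 and 2 genes passed 2-fold upward, with a median log2 ratio of 0.34. These were Phlda1, with 123 and 41 UMIs and a ratio of 2.99 (2.08 to 4.36), and Maff, with 35 and 15 UMIs. Fos, which is readily induced during tissue digestion, had a ratio of 1.04 (0.885 to 1.23), and Egr1 one of 1.79 (1.43 to 2.26).

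The 23 of 27 low-oxygen and glycolysis genes with 50 or more UMIs had a ratio above 1, against 39.4% of all genes, but 11 of the 23 intervals included 1. Their median log2 ratio was 0.45, and 22 were above 1 when the comparison cells also had fewer than 2 interferon-induced genes. In this list 3 genes passed 2-fold upward, against 1.96% of all genes. Those past 2-fold were Ero1l, an oxidase of the endoplasmic reticulum (159 and 66 UMIs, ratio 2.40, 1.79 to 3.24), Hilpda, a lipid droplet protein (470 and 211 UMIs, ratio 2.22, 1.88 to 2.62), and Egln3, a hydroxylase that marks Hif proteins for breakdown (171 and 84 UMIs, ratio 2.03, 1.55 to 2.66). None of the enzymes of glycolysis itself passed 2-fold. Pgk1 had a ratio of 1.48 (1.25 to 1.75), Tpi1 of 1.40 (1.19 to 1.64), Pkm of 1.28 (1.15 to 1.41) and Eno1 of 1.20 (1.05 to 1.36), whereas the intervals of Hk2, Pfkp, Aldoa, Gapdh, Pgam1 and Ldha included 1.

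Of 13 genes of iron storage and antioxidant defence 10 had a ratio above 1, against 39.4% of all genes. Their median log2 ratio was 0.49, and 3 of the 13 intervals included 1. Only 1 of the 13, Slc7a11, passed 2-fold upward, against 1.96% of all genes. Fth1, the ferritin heavy chain, had 14283 UMIs in members and 7679 in comparison cells, 34267 against 18513 CPM, a ratio of 1.85 (1.80 to 1.90). Slc7a11, the cystine importer that feeds glutathione synthesis, had 170 and 59 UMIs and was detected in 19.7% of members and 7.21% of comparison cells, a ratio of 2.87 (2.12 to 3.92). Hmox1, which breaks down heme, had a ratio of 1.79 (1.47 to 2.20). Gpx1, a glutathione peroxidase, was lower with 538 and 799 UMIs, a ratio of 0.670 (0.60 to 0.75).

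Of 22 adhesion and matrix genes 13 had a ratio above 1, against 39.4% of all genes, and 13 intervals included 1. In this list 2 genes were at least 2-fold higher, against 1.96%, and 1 at least 2-fold lower, against 5.35%, with a median log2 ratio of 0.03. Thbs1, the matrix protein thrombospondin-1, had 1232 and 496 UMIs, a ratio of 2.47 (2.23 to 2.75), and was found in 67.3% of members and 38.9% of comparison cells. Cd9, a tetraspanin, had a ratio of 2.14 (1.85 to 2.49), and Srgn, the core protein of granule proteoglycans, one of 1.73 (1.66 to 1.81). The integrin chains Itgam and Itgb2 had ratios of 1.21 (1.06 to 1.38) and 1.02 (0.813 to 1.28). Cd44, the hyaluronan receptor, had a ratio of 1.55 (1.33 to 1.81), and Itga4 had 17 and 34 UMIs, a log2 ratio of -1.01.

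Among 10 chemoattractant receptors 9 had a ratio above 1, against 39.4% of all genes, 4 intervals included 1 and none passed 2-fold. Fpr1, a receptor of formylated peptides, had a ratio of 1.86 (1.44 to 2.40), and Ccr1, a receptor of Ccl3, one of 1.48 (1.27 to 1.74). Ccr2, the receptor of Ccl2, went the other way with 142 and 275 UMIs, a ratio of 0.514 (0.417 to 0.631). Of 21 sensing receptors 15 had a ratio above 1, 11 intervals included 1 and 2 genes passed 2-fold upward, against 1.96% of all genes, Clec4d and Cd14. Cd14, which hands bacterial lipopolysaccharide to Tlr4, had 1440 and 686 UMIs, a ratio of 2.09 (1.91 to 2.29), and was detected in 71.1% of members and 43.3% of comparison cells. Of 14 survival and apoptosis regulators 9 had a ratio above 1 and 5 below, 10 intervals included 1 and 2 genes passed 2-fold upward, 1 of them also against comparison cells under 2 interferon-induced genes. These were the survival factor Bcl2l1 with 58 and 28 UMIs and Tnfrsf23, a decoy receptor of Trail, with 37 and 17. Cxcr4, which rises on aged neutrophils, had 26 and 13 UMIs, a ratio of 1.99 (0.987 to 4.22).

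**Figure D4:**
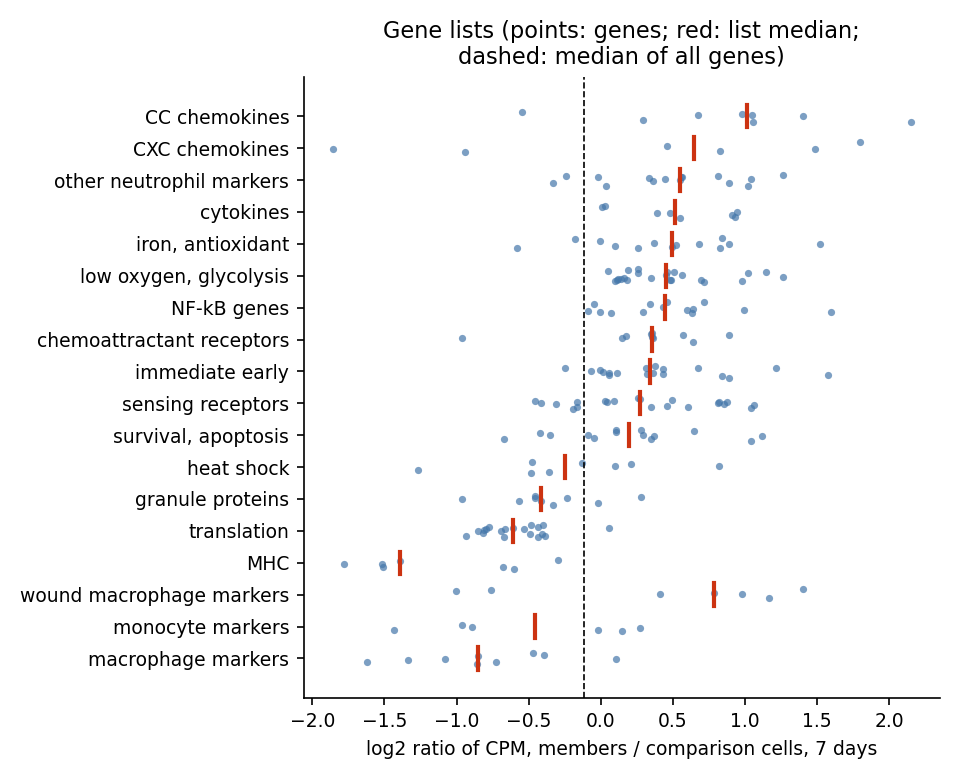
Log2 ratio of CPM in members to comparison cells at 7 days p.i. (horizontal axis) for the genes of 18 lists with 50 or more UMIs; blue points are genes, red lines list medians and the dashed line the median of all genes (-0.12). Chemokine lists stand to the right, with 1.02 for CC chemokines, and MHC genes to the left, with -1.39.

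All 7 MHC genes, which serve antigen presentation, had a ratio below 1, against 60.6% of all genes, with a median log2 ratio of -1.39. Of the 7 genes 4 were at least 2-fold lower, against 5.35% of all genes. Markers of cells that can bear MHC class II went in both directions in the same comparison, since 8 of 9 markers of macrophages, 4 of 6 of monocytes and 2 of 7 of wound macrophages had a ratio below 1, and the B cell markers had 15 against 44 UMIs. H2-Aa, a chain of MHC class II, had 130 UMIs in members and 444 in comparison cells, 312 against 1070 CPM, a ratio of 0.291 (0.238 to 0.355), and was detected in 9.87% and 17.5% of cells. Cd74, the invariant chain, had 157 and 410 UMIs, a ratio of 0.381 (0.315 to 0.459). The class I genes H2-K1 and H2-D1 had ratios of 0.658 (0.578 to 0.749) and 0.815 (0.756 to 0.879). With comparison cells under 2 interferon-induced genes the log2 ratio of H2-Aa was -1.76, against -1.78, and without cells that carried 2 or more genes of another cell type list it was -2.04.

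Of 19 ribosomal protein and elongation genes 18 had a ratio below 1, against 60.6% of all genes, and none passed 2-fold, with a median log2 ratio of -0.61. Of smaller lists, 5 of 7 genes of aging and release, 3 of 8 heat shock genes and 2 of 3 lipid mediator genes had a ratio above 1, against 39.4% of all genes. Mitochondrial transcripts took 4.39% of the UMIs of members and 4.68% of those of comparison cells. The interferon-induced genes Gbp2 and Ifi47 had log2 ratios of -2.91 and -1.86. The rule holds members but not comparison cells to fewer than 2 interferon-induced genes, and against the 583 comparison cells that also met this condition Gbp2 stood at -2.01 and Ifi47 at -1.06, whereas Cxcl10 stood at -0.14 and Gm4955 at -0.77. In that comparison 2.3% of genes were at least 2-fold higher and 3.29% at least 2-fold lower. At least 2 interferon-induced genes were detected in 22.2% (19.2 to 25.3) of gated cells without either chemokine, in 26.1% (22.2 to 30.3) of those with 1 UMI and in 21.3% (18.6 to 24.2) of those with 2 or more, and these intervals overlap.

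Markers of other cells moved with the groups in both directions. Of 7 wound macrophage markers 5 had a ratio above 1, against 39.4% of all genes. In members 2 of the 7 were at least 2-fold higher, against 1.96% of all genes, and 1 at least 2-fold lower, against 5.35%. The summed share of the 7 markers was 1.36% of UMIs in members and 0.689% in comparison cells. Spp1, osteopontin, had 2153 and 1241 UMIs, a ratio of 1.73 (1.61 to 1.85), with 233 of the 2153 in 1 cell. Of 9 macrophage markers 8 had a ratio below 1, against 60.6% of all genes, and 3 were at least 2-fold lower, against 5.35%. These 9 markers had a median log2 ratio of -0.85 and a summed share of 0.157% against 0.262%. C1qc, a complement subunit of tissue macrophages, had 46 and 141 UMIs. Monocyte markers summed to 0.190% against 0.281%. Of these 6 markers 2 had a ratio above 1, against 39.4% of all genes, and 1 was at least 2-fold lower, against 5.35%. Of their intervals 3 included 1. Ly6c2, their surface marker, had a ratio of 0.538 (0.446 to 0.648), and F13a1, a coagulation factor subunit, one of 1.21 (0.956 to 1.52).

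Lymphocyte, basophil and liver cell markers were sparse. The 11 T and NK cell markers had 194 UMIs in members and 265 in comparison cells, the 7 basophil and mast cell markers 1 and 0, the 5 B cell markers 15 and 44, the 6 dendritic cell markers 20 and 30, the 6 endothelial markers 51 and 89 and the 7 hepatocyte markers 97 and 155. Of the basophil and mast cell markers 6 were at 0 in members and all 7 in comparison cells. The 4 erythroid markers had 4 and 84 UMIs. Few cells carried them, since Hbb-bs was found in 6 comparison cells, with 19 UMIs in 1 cell, and Hba-a1 in 4, with 11 UMIs in 1 cell.

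When every cell with a UMI of Ccl2 or Ccl7 was left out, a setting chosen after seeing the data, 497 members and 596 comparison cells remained, and 32.0% (29.6 to 34.3) of the gated cells left were members. The log2 ratio of Ccl3 was then 2.23, against 2.15 with all cells, that of Cxcl2 1.64 against 1.49, that of Ccl6 1.13 against 1.06, that of Thbs1 1.37 against 1.31, that of Cd14 1.14 against 1.06 and that of Fth1 0.94 against 0.89. Ccl9 was lower than with all cells and no longer past 2-fold, at 0.65 against 1.05. When instead every cell with 2 or more genes of another cell type list was left out, 579 members and 596 comparison cells remained. Of 1836 genes compared, 40 were then at least 2-fold higher and 98 at least 2-fold lower. The lists of monocytes and wound macrophages were not used for this, so that cells with their markers could stay in. In that setting the log2 ratio was 2.23 for Ccl3, 1.40 for Cxcl2, 1.21 for Thbs1, 1.03 for Cd14, 0.91 for Fth1 and 0.88 for Ccl9. Doublets as such were not called and were kept.

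The levels were next followed by the number of UMIs of Cxcl3 and Ccl4 in the cell, among gated cells at 7 days p.i. with fewer than 2 interferon-induced genes. There were 583 cells with 0 UMIs, 348 with 1, 195 with 2, 104 with 3, 151 with 4 or 5 and 229 with 6 or more, and their median depth was 444, 458.5, 472, 474.5, 478 and 594 UMIs in this order. Cxcl2 stood at 4583 CPM (4348 to 4828) in cells with 0 UMIs, 6049 with 1, 8579 with 2 and 15553 (14955 to 16168) with 6 or more. Ccl3 stood at 306 CPM (248 to 375) with 0, 578 with 1, 807 with 2 and 1920 (1714 to 2145) with 6 or more. The cells with 1 UMI, which the rule takes as neither members nor comparison cells, thus lay between the 2 groups in both genes.

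Thbs1 and G0s2 were also higher at the upper end, from 1245 (1124 to 1376) and 887 (785 to 998) CPM with 0 UMIs to 3682 (3395 to 3988) and 2548 (2310 to 2805) with 6 or more. So were 2 markers of wound macrophages, though not in steady order. Ccl2 stood at 587 CPM (505 to 679) with 0 UMIs, 839 with 3 and 2390 (2159 to 2639) with 6 or more. Spp1 stood at 3184 (2988 to 3389), 3497 and 6042 (5672 to 6430). Lyz2, also made by macrophages, went down from 6964 (6673 to 7264) to 4024 (3723 to 4343). H2-Aa went down from 1058 CPM (947 to 1179) with 0 UMIs to 552 (452 to 668) with 1 and 226 (159 to 311) with 6 or more, where 16 of 37 UMIs lay in 1 cell. Cxcr2 showed no such order, with 2706 CPM (2526 to 2896) at 0 and 2439 (2206 to 2690) at 6 or more.

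**Figure D5:**
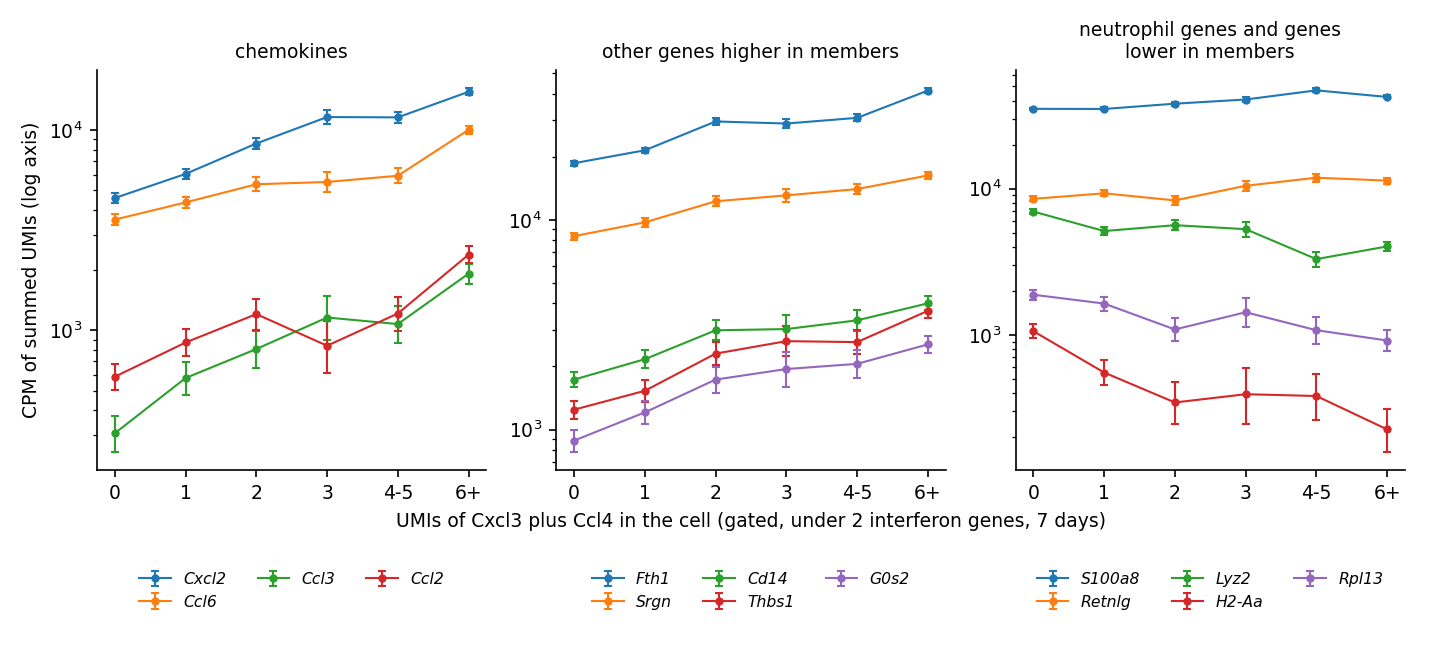
Level of named genes (vertical log axes, CPM of summed UMIs with exact Poisson 95% intervals) in gated neutrophils at 7 days p.i. with fewer than 2 interferon-induced genes, by the UMIs of Cxcl3 plus Ccl4 in the cell (horizontal axis). Cxcl2 went from 4583 CPM with 0 UMIs to 15553 with 6 or more, H2-Aa from 1058 to 226.

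The 2 chemokines tended to occur in the same cells. Among all gated neutrophils of 7 days p.i., Ccl4 was detected in 25.7% (23.0 to 28.5) of the cells without Cxcl3, in 28.7% (24.4 to 33.2) of those with 1 UMI of Cxcl3, in 36.2% (29.7 to 43.0) of those with 2 and in 53.0% (48.2 to 57.7) of those with 3 or more. Among cells of 400 to 1000 UMIs the shares were 27.1% (23.5 to 31.0), 27.5% (22.2 to 33.4), 37.1% (29.1 to 45.7) and 53.2% (47.3 to 58.9), at median depths between 520 and 578 UMIs.

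Cxcl2 stood at 14668 CPM (14160 to 15191) in the 340 members with both, at 9929 (9456 to 10420) in the 279 with Cxcl3 alone and at 9897 (8906 to 10968) in the 60 with Ccl4 alone. Those 340 members held 1475 UMIs of Cxcl3 and 915 of Ccl4, the 279 held 1220 and the 60 held 217. The groups thus also differed in UMIs of both chemokines together per cell, and the part of this in the levels was not tested. Il1b stood at 3591 CPM (3342 to 3854) with both, 2389 (2160 to 2636) with Cxcl3 alone and 3018 (2483 to 3634) with Ccl4 alone, where the interval overlaps that of both. Ccl2 was 2287 CPM (2063 to 2529) in members with Cxcl3 alone, 1220 (1077 to 1378) in those with both and 979 (686 to 1355) in those with Ccl4 alone, and the latter intervals overlap. Spp1 stood at 10169 CPM in the members with Ccl4 alone, where 233 of its 374 UMIs lay in 1 cell, and at 4034 CPM without that cell, against 4285 with Cxcl3 alone and 4989 with both. S100a8 was 36630 CPM (35716 to 37562) with Cxcl3 alone, 46338 (45431 to 47260) with both and 40810 (38772 to 42928) with Ccl4 alone.

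In the control library, 23 gated cells had at least 1 UMI of either chemokine, 22 of them with Ccl4, against 286 without. Of the 23 cells 16 had exactly 1 UMI, and 13 (56.5%) carried at least 2 markers of 1 other cell type, against 50.0% of the others. Cxcl2 had 26 UMIs in these cells and 80 in the others, 1057 against 325 CPM, a ratio of 3.25 (2.00 to 5.11), and Ccl3 had 8 and 14 UMIs, a ratio of 5.71 (2.08 to 14.6). Fth1 was 2.27-fold (1.97 to 2.62) higher. S100a8 was lower in these control cells, with a ratio of 0.365 (0.323 to 0.412). H2-Aa had 56 and 256 UMIs in these control cells, a ratio of 2.19 (1.61 to 2.93).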

How the data were processed

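The authors prepared Drop-seq libraries and aligned the reads with STAR 2.5.2a, and the submitters' processing notes name hg19, although the gene symbols are those of mouse. Per the file headers, UMI counts per gene and barcode were taken from sense reads in coding and untranslated bases, and the deposited counts are not normalized. The annotation is not given in the sources used here, so that the data carry no coordinates. Doublets were not called and were kept.

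Cells were selected by the rule given above, and the members and gene lists were chosen with earlier results of these data known. UMIs were summed over cells and divided by the summed total (CPM). Sums carry exact Poisson intervals, shares exact binomial (Clopper-Pearson) intervals and ratios conditional binomial intervals, at 95% (Python 3.11.15, scipy 1.17.1). No test was run across samples. Named were the genes of the rule, list genes with at least 20 UMIs, and the 10 highest and 10 lowest ratios among genes with at least 50 UMIs. The ratio step was tested on simulated data. Thinning used seed 1. Alternatives changed the limits of the rule, the comparison cells, the depth and the denominator. Some items are not reported here, and the counts of the lists include them.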

Additional observations from a re-analysis of the deposited data

Results flagged for a closer look

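Barcodes with fewer than 200 genes were left out of the comparisons above, apart from a setting that took at least 100 genes, and both chemokines were above their control level there at 7 days p.i. Cxcl3 stood at 3492 CPM in these 6842 barcodes, against 0.991 CPM in the 5318 such barcodes of the control library. Ccl4 stood at 1962 CPM against 46.6 CPM. At 7 days p.i. both levels were also above those of gated neutrophils, which were 2887 CPM for Cxcl3 and 1383 CPM for Ccl4. These barcodes held 42.4% of the library's UMIs of Cxcl3 and 50.9% of those of Ccl4 at 7 days p.i. The neutrophil gene S100a8 stood at 44662 CPM in them, against 4456 CPM in such barcodes of control and 35502 CPM in gated neutrophils at 7 days p.i. How much the mix of cells contributed was not tested.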

How the results depend on the processing

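The share of members at 7 days p.i. was 29.3% with at least 100 genes per barcode, 37.4% with at least 3 gate genes, 23.2% with at least 3 UMIs of both chemokines and, thinned to 300 UMIs, 23.0% with 2 or more UMIs and 51.4% with 1 or more. The control share was 0.324% with at least 3 UMIs and 0.328% thinned. The share at 1 day p.i. was 0% (0 of 10 cells) with at least 3 gate genes and 0% (0 of 8) without cells carrying markers of other types, which leaves upper bounds of 30.8% and 36.9%. The genes at least 2-fold higher and lower numbered 28 and 47 of 1066 with at least 3 gate genes, 129 and 411 of 4551 with at least 20 UMIs per gene, and 28 and 47 of 1285 with at least 100, against 47 and 128 of 2394. Against comparison cells under 2 interferon-induced genes, 70 of 2127 were lower. Of 47 named genes past 2-fold, all kept their direction under each other setting that gave them a value, except Cd5l, at 3.06 (9 and 1 UMIs) without cells carrying markers of other types. Fewer stayed past 2-fold, 33 with at least 3 gate genes, 34 with at least 100 genes per barcode and 40 against comparison cells under 2 interferon-induced genes. In the last of these settings the ratio was 1.86 for Maff, 1.84 for Slpi, 1.99 for Cd14 and 1.97 for Tnfrsf23. Without cells carrying Ccl2 or Ccl7, chosen after seeing the data, 50 genes were higher and 128 lower, and all 46 named genes with a value kept their direction, 39 of them past 2-fold. Without the 1 cell holding most UMIs of a gene, also chosen after seeing the data, the 47 named genes kept their direction, and Slpi, Egln3, Bcl2l1, Itga4, Cd5l and Trem2 no longer passed 2-fold. The causes were not tested. No paired analysis was possible because each condition is 1 library, and no replicate could be left out.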
